A study of Mus musculus with 6 samples.

Results

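The 10 genes described here mark the cells of brain blood vessels. Cldn5, Pecam1, Slc2a1, Slc16a1, Mfsd2a, Kdr and Flt1 mark the endothelium of the blood-brain barrier, and Pdgfrb, Rgs5 and Vtn mark pericytes. They were chosen by symbol, and each matched 1 of 47794 rows in the deposited table. Primary somatosensory cortex of C57BL/6 mice aged 14 days was sequenced as RNA, with 3 libraries in each of 2 groups. The overexpression group carried a Ctnnb1 allele with a floxed exon 3 together with Nex-Cre. The control group carried the floxed exon 3 allele without Nex-Cre, so the allele was common to both groups. Nex-Cre is expressed from the Neurod6 locus and recombines in excitatory neurons of the forebrain, not in vessel cells, and loss of exon 3 stabilises β-catenin. Whether the 3 libraries of a group are 3 animals is not in the labels, so p-values cover the spread between libraries only, which may be technical.

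Brain endothelial cells are sealed by tight junctions and carry nutrients across the vessel wall with dedicated transporters. Vascular endothelial growth factor (VEGF) drives their growth, and pericytes, recruited by platelet-derived growth factor B, wrap the capillaries and help to keep the barrier closed. β-Catenin acts in the endothelium itself to maintain the barrier, downstream of Wnt7a, Wnt7b and Norrin released by neural cells. In bulk cortex a lower value can mean fewer vessel cells or less RNA per cell, and these cannot be told apart.

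Each gene had 1 deposited value for each group, a scaled read count, which is the mean over libraries of reads divided by a scaling factor per library. None of the 10 genes differed between the groups by the authors' test. By that test 0 of the 10 had an adjusted p under 0.05 in the authors' deposited table, against 0% of all 30152 tested genes. Likewise 0 of the 10 had an unadjusted p under 0.05, against 0.534% of tested genes. A count of 0 among 10 genes is near that background and does not show that the genes were unchanged. Their unadjusted p in the authors' deposited table ran from 0.356 for Pecam1 to 0.996 for Kdr, and each adjusted p was 1. The means of 4 of the 10 genes lay above control in overexpression cortex, and those of 6 lay below. The median log2 fold change was -0.0083, beside -0.0086 over all tested genes with both means above 0. Over genes whose mean reached 500 it was -0.028. The sign of the median of the 10 depended on the scaling. It was 0.023 when each mean was divided by its column total. With genes of a mean of at least 100 centred at 0, it was 0.0092. The largest absolute log2 fold change of the 10 was 0.12, and 84.95% of the 6786 genes whose mean reached 500 lay within it. The median absolute log2 fold change was 0.078 over the 10 and 0.056 over those 6786 genes.

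**Figure D1:**
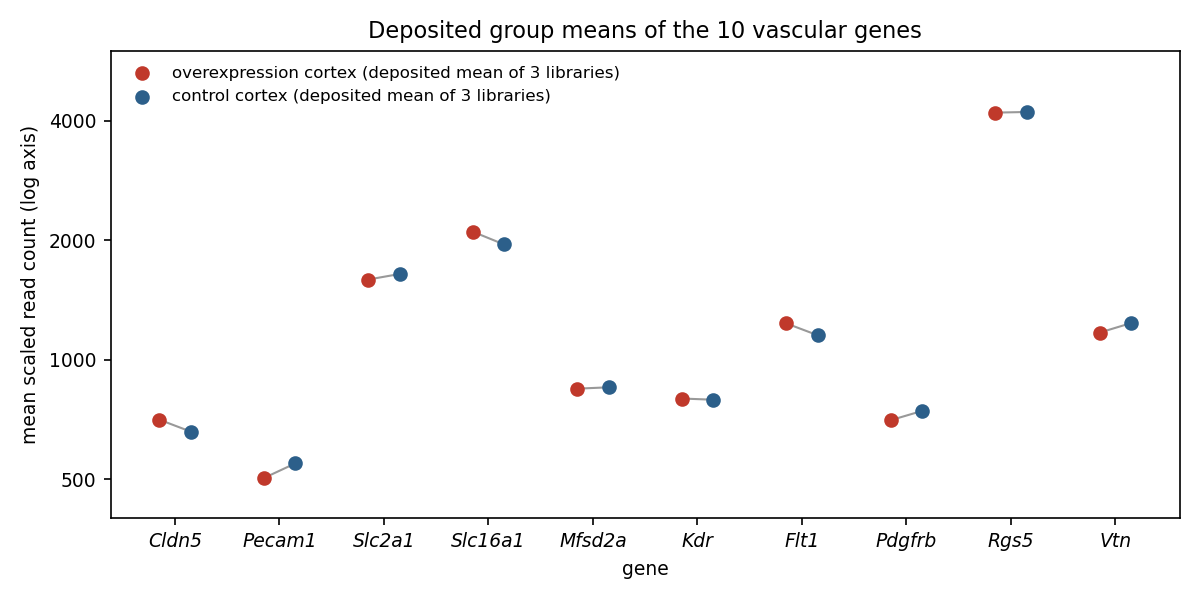
Deposited mean scaled read count (log axis) of each of the 10 genes in overexpression cortex (left point of each pair) and control cortex (right point), 3 libraries per mean. The points of a pair lie close together, from 504 and 548 for Pecam1 to 4191 and 4207 for Rgs5.

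Cldn5 and Pecam1 are general endothelial genes. Cldn5 encodes claudin-5, the main sealing protein of endothelial tight junctions in the brain. Its mean scaled read count was 707 in overexpression and 660 in control cortex, a log2 fold change of 0.10 with an authors' deposited p of 0.771. Pecam1 encodes CD31, an adhesion molecule of endothelial cell contacts. Its mean was 504 in overexpression and 548 in control cortex, a log2 fold change of -0.12 with p = 0.356 in the authors' deposited table. The pair thus had means on opposite sides of no change, although both mark the same cells. Summed, they came to 1210 scaled reads in overexpression and 1208 in control cortex.

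Library values could be recovered from the group means for part of the table. Each library adds a fixed amount per read to its group mean, so a mean given to 10 significant digits can be matched to whole reads of 3 libraries. Within a group, A, B and C name the libraries in falling order of scaling factor, and they cannot be tied to replicate numbers. The factors were 1.23, 1.06 and 0.966 in overexpression and 0.982, 0.926 and 0.907 in control libraries. For means up to 1000 in control cortex exactly 1 combination of reads matched every mean. In overexpression cortex 1 combination matched each mean up to 100, and above 100 a gene was used where 1 combination matched in all or, where several did, where 1 alone had every library within 2-fold of the mean.

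Pecam1 was the gene recovered in both groups. Its overexpression values, and the results below that use them, assume that every library lay within 2-fold of the mean. Without that limit 0% of overexpression means between 450 and 1000 matched 1 combination alone. Its scaled read counts were 415, 524 and 572 in overexpression libraries A, B and C, against 564, 590 and 491 in control libraries A, B and C. The groups overlapped, with overexpression A below every other library and the other 5 between 491 and 590. The group values were 504 ± 80.7 in overexpression and 548 ± 51.4 in control cortex (SD, n = 3 each). The linear model of limma, fitted across 10207 recovered genes, gave Pecam1 a log2 fold change of -0.13 (95% interval -0.40 to 0.14) and an adjusted p of 0.9995. Without overexpression A the log2 fold change was 0.0031. Over all 10207 genes limma called 0% at an adjusted p under 0.05, and 2.04% had an unadjusted p under 0.05.

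Cldn5 was recovered in control cortex only. Its control values were 639, 705 and 634 in libraries A, B and C, which is 660 ± 39.6 (SD, n = 3). The overexpression mean of 707 matched 3 combinations within 2-fold of it, and each was more spread out than the control libraries. The narrowest of these was 863, 489 and 768 in libraries A, B and C, the next 509, 960 and 651, and the widest 1111, 481 and 528. Under every one of them at least 1 overexpression library lay below and at least 1 above all control libraries. The same limma model gave an unadjusted p from 0.724 to 0.979 over the 3 combinations.

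**Figure D2:**
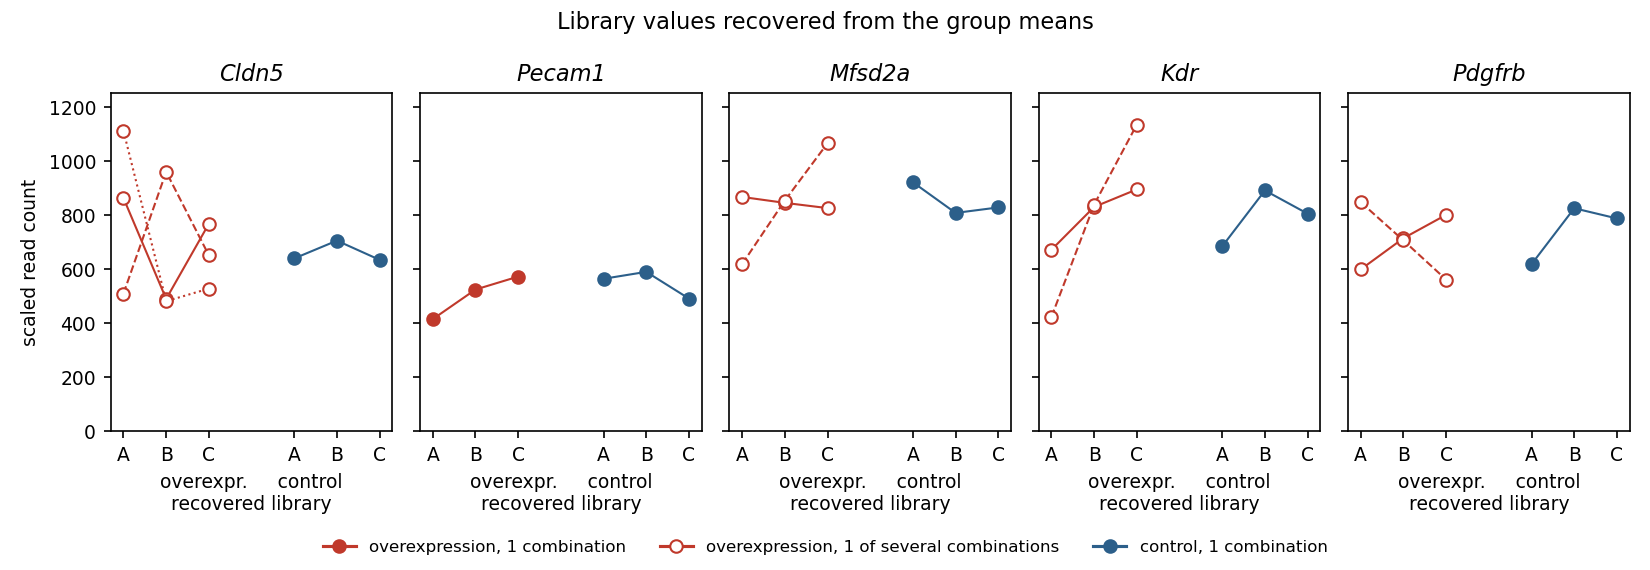
Scaled read count of 5 genes in overexpression libraries A to C (left, red) and control libraries A to C (right, blue), recovered from the group means. Filled points are values with 1 matching combination, which for overexpression Pecam1 means 1 with every library within 2-fold of the mean. Open points joined by a line are alternative combinations within 2-fold of the mean. If that limit holds, 1 of them is right. Overexpression values overlap control values for each gene.

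Slc2a1, Slc16a1 and Mfsd2a carry nutrients across the barrier. Slc2a1 encodes the glucose transporter GLUT1. Its mean scaled read count was 1593 in overexpression against 1644 in control cortex, and the log2 fold change of -0.046 had an authors' deposited p of 0.891. Slc16a1 encodes the lactate and ketone body transporter MCT1, which glia also make. Its mean was 2101 in overexpression and 1951 in control cortex, and its log2 fold change of 0.11 had an authors' deposited p of 0.490. Mfsd2a encodes a transporter of lipids that carry docosahexaenoic acid and is known for holding down vesicle traffic through brain endothelium. It had means of 846 in overexpression and 852 in control cortex, a log2 fold change of -0.011 with an authors' deposited p of 0.933. Added up, the 3 transporter means gave 4540 scaled reads in overexpression against 4448 in control cortex.

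Mfsd2a had control values of 921, 808 and 828 in libraries A, B and C. Its overexpression mean matched 2 combinations within 2-fold. These were 867, 845 and 826, or 618, 854 and 1066, in libraries A, B and C. Library B was thus nearly fixed at 845 or 854, inside the control range, while A and C traded against each other. By limma the unadjusted p was 0.909 and 0.782 for these combinations. The means of Slc2a1 and Slc16a1 matched 20 and 35 combinations in overexpression cortex, against 7 and 12 in control cortex, and no library values are given for them.

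Kdr and Flt1 encode the VEGF receptors of endothelium. Kdr is the main signalling receptor, and Flt1 binds VEGF tightly and acts largely as a decoy. The mean of Kdr was 799 in overexpression and 793 in control cortex, a log2 fold change of 0.0098. Flt1 stood at 1235 in overexpression against 1153 in control cortex, and its log2 fold change of 0.099 had an authors' deposited p of 0.434. The ratio of the Kdr to the Flt1 group mean was 0.647 in overexpression and 0.688 in control cortex.

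The control values of Kdr were 684, 891 and 805 in libraries A, B and C. In overexpression cortex 2 combinations matched within 2-fold, namely 671, 830 and 895, or 423, 839 and 1135, in libraries A, B and C. Both put overexpression A below and overexpression C above every control library. limma gave an unadjusted p of 0.949 and 0.728 for them. For Flt1 there were 15 combinations in overexpression and 4 in control cortex, and over all 60 pairs the unadjusted p by limma lay between 0.223 and 0.994.

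Pericytes were represented by Pdgfrb, Rgs5 and Vtn, and all 3 had slightly lower means in overexpression cortex. Pdgfrb encodes the receptor for platelet-derived growth factor B. Its mean was 705 in overexpression against 744 in control cortex, and the log2 fold change of -0.077 had an authors' deposited p of 0.618. Rgs5, a regulator of G protein signalling abundant in brain pericytes, had means of 4191 in overexpression and 4207 in control cortex, a log2 fold change of -0.0055. Vtn encodes vitronectin, a matrix protein that pericytes secrete and that acts on endothelial integrins to limit transcytosis. The mean of Vtn was 1171 in overexpression and 1237 in control cortex, a log2 fold change of -0.080 with an authors' deposited p of 0.581. The log2 ratio of the column totals, overexpression over control, was -0.0318, so that relative to the totals Rgs5 was slightly higher in overexpression cortex while Pdgfrb and Vtn were lower.

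Pdgfrb had control values of 618, 825 and 787 in libraries A, B and C. Its overexpression values were 599, 714 and 801, or 847, 706 and 561, in libraries A, B and C, the 2 combinations within 2-fold of the mean. Control A was the lowest control library for Pdgfrb and for Kdr. With either combination limma gave an unadjusted p of at least 0.558. Vtn matched 10 combinations in overexpression and 5 in control cortex, and the unadjusted p over all 50 pairs ran from 0.340 to 0.990. Rgs5, with 124 and 58 combinations, was left without library values.

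Levels of different genes were compared as scaled reads per kilobase of exon, with exon lengths from GENCODE M21. On that scale Rgs5 was highest, at 922 in overexpression and 925 in control cortex. Vtn followed with 577 and 610, then Cldn5 with 499 and 466, Slc2a1 with 454 and 469, Slc16a1 with 475 and 441, and Mfsd2a with 376 and 379, each time in overexpression and control cortex. Pdgfrb was at 129 and 136, Flt1 at 91.4 and 85.4, Kdr at 88.5 and 87.9, and Pecam1 at 80.9 and 88.0. In the control libraries Cldn5 lay between 448 and 498 per kilobase and Mfsd2a between 359 and 410, without overlap. Kdr, at 75.8 to 98.7, and Pecam1, at 78.8 to 94.7 per kilobase, could not be told apart in those libraries. The exon length counts every annotated transcript, so genes with long or many isoforms, such as Flt1, are understated.

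Among 24 further mural genes and 29 endothelial genes whose overexpression values were recovered, library A of the overexpression group was low. The mural genes came from lists for pericytes and vascular smooth muscle. The endothelial genes came from lists for endothelial identity, barrier transport and cell junctions and include Pecam1. Overexpression A was the lowest of the 3 overexpression libraries for 22 of the 24 mural genes and 22 of the 29 endothelial genes, while it was lowest for 35.5% of all 10237 recovered genes whose mean reached 10. The median log2 ratio of overexpression A to the group mean was -0.40 for mural and -0.25 for endothelial genes, beside -0.024 for all recovered genes. Summed over 14 recovered pericyte genes the scaled counts were 1748, 2396 and 2415 in overexpression A, B and C, and over 10 smooth muscle genes 746, 1410 and 1252.

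Most single genes had overexpression A lowest, but not all. Lmod1, a smooth muscle gene, had 55.4, 50.8 and 59.0 in overexpression A, B and C. Egfl7, an endothelial gene, had 264, 387 and 241. Acta2, the actin of smooth muscle, had 149, 344 and 324 in overexpression A, B and C, against 297, 258 and 292 in control A, B and C. Myh11, the smooth muscle myosin, had 108, 254 and 273 in overexpression libraries and 247, 213 and 204 in control libraries. Overexpression A lay below every control library for both genes, and overexpression B and C lay above them all. Other smooth muscle genes differed, as Des had 27.7, 40.5 and 29.0 in overexpression and 34.6, 37.8 and 41.9 in control libraries. Cdh5, which encodes the cadherin of endothelial contacts, had 371, 569 and 564 in overexpression A, B and C, against 445, 526 and 500 in control libraries. Notch3, a receptor of mural cells, had 396, 515 and 567 in overexpression and 416, 570 and 463 in control libraries. All genes of this paragraph were named after their values were seen.

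Genes of meningeal fibroblasts and of the basement membrane were low in the same library, while those of the choroid plexus were not. Overexpression A was lowest for 7 of 7 recovered meningeal fibroblast genes, whose sum was 567, 914 and 1486 in overexpression A, B and C, and for 6 of 6 basement membrane genes. Col3a1, a fibrillar collagen of the meninges named after its values were seen, had 207, 390 and 753 in overexpression and 328, 578 and 489 in control libraries. Over 6 perivascular macrophage genes the sum was 126, 132 and 336 in overexpression A, B and C, with A lowest for 3. Over 5 of them it was 107, 284 and 144 in control A, B and C. Choroid plexus genes summed to 247, 226 and 234 in overexpression and 200, 860 and 148 in control libraries, with overexpression A lowest for 1 of 5. Single genes made up most of these sums. Ttr alone had 713 in control B, against 76.4 in control A and 79.4 in control C. In overexpression A, Ttr had 97.8 and Kl 95.3. Control B was the highest control library for 7 of 9 meningeal fibroblast, 7 of 8 basement membrane and 5 of 5 perivascular macrophage genes. Over all recovered control genes it was highest for 4332 of 12691. Overexpression C was the highest overexpression library for 6 of 7, 5 of 6 and 6 of 6 genes of these lists. Over all recovered overexpression genes it was highest for 3085 of 10237. The part of these surrounding cells in the vascular values was not tested. In control cortex library A was the lowest for 12 of 17 pericyte genes, 3 of 11 smooth muscle genes and 18 of 44 endothelial genes, beside 36.8% of all recovered genes.

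**Figure D3:**
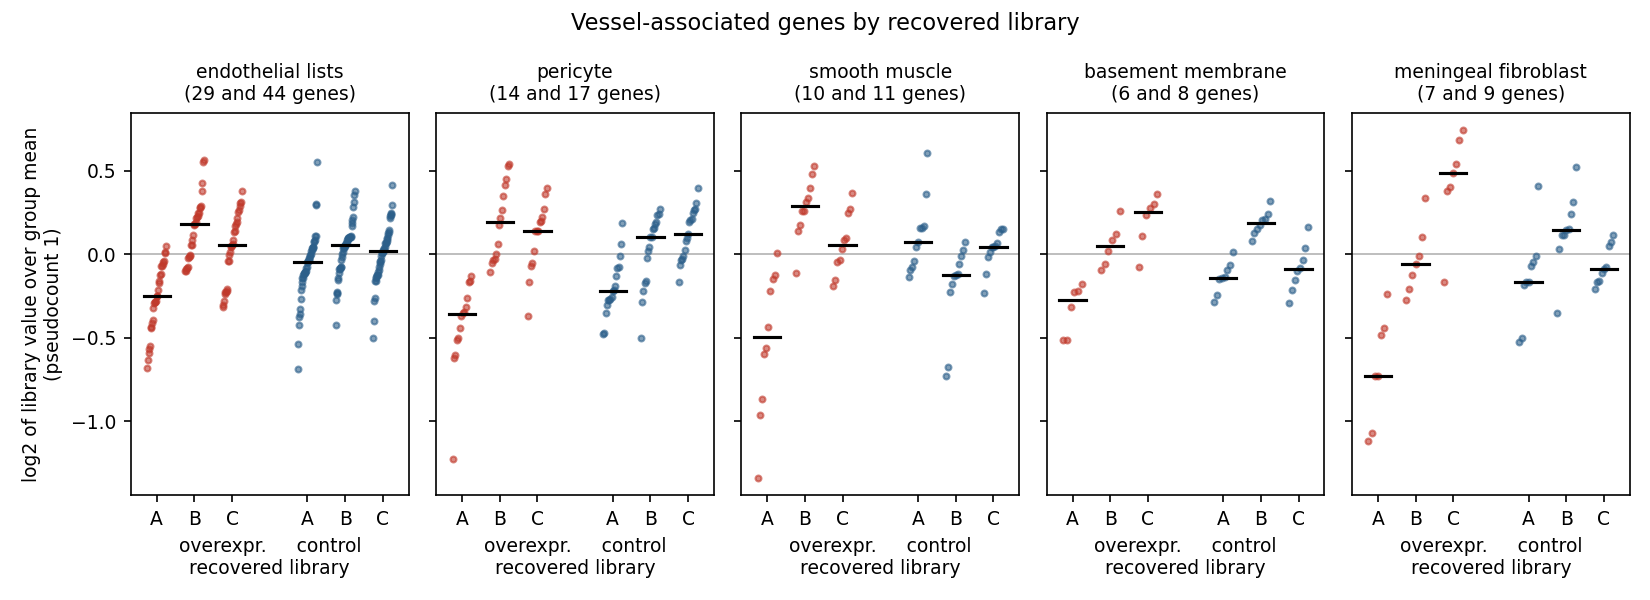
log2 ratio of each recovered gene's library value to its group mean (pseudocount 1), for overexpression libraries A to C (left, red) and control libraries A to C (right, blue) in 5 sets of genes whose mean reached 10. Points are genes and black bars are medians. The median of overexpression A lies below 0 in each set, at -0.25 for endothelial and -0.73 for meningeal fibroblast genes.

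The median differences of these lists depended on single libraries of both groups. Over the 24 mural genes recovered in both groups the median log2 fold change was -0.021, with 11 higher and 13 lower, and without overexpression A it was 0.21, with 21 higher and 3 lower. For the 29 endothelial genes it was 0.036, with 17 higher and 12 lower, and without overexpression A it was 0.14, with 24 higher and 5 lower. The median over all 10207 recovered genes was 0.015, and 0.030 without overexpression A. Without overexpression B the mural median was -0.12 and the endothelial median -0.044. Control libraries turned the sign as well, since the mural median was 0.018 without control B and 0.066 without control C, and the endothelial median was -0.031 without control A. Leaving out any 1 library gave 0 genes with a limma adjusted p below 0.05, and between 149 and 377 with an unadjusted p below it.

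Across 11 lists of vessel genes, 155 in all, the authors' deposited table called 0 and gave 0 an unadjusted p under 0.05, beside 0% and 0.534% of all tested genes, so both counts are near the background. Of these 80 had higher and 75 lower means in overexpression cortex, with a median log2 fold change of 0.0058. On recovered libraries limma tested 92 of them, with 0 called and 0 at an unadjusted p under 0.05, beside 0% and 2.04% of all 10207 genes. The 95% interval of the fold change reached a median of 1.34-fold to either side over these genes, and was narrower for some and wider for others.

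For 28 endothelial identity genes the median log2 fold change was -0.0036, with 14 higher and 14 lower. Ptprb, a phosphatase that restrains the receptor Tie2, had means of 1382 in overexpression and 1417 in control cortex, and Cd34 had 1187 and 1373. The 19 barrier transport genes had a median of 0.0040, with 10 higher and 9 lower. Slc6a6, the taurine transporter gene, had means of 3739 in overexpression and 3583 in control cortex, and Tfrc, the transferrin receptor gene, had 2719 and 2822. Neurons and glia express these transporters as well. The 13 junction genes had a median of 0.042, with 10 higher and 3 lower. Tjp1, which encodes the scaffold ZO-1, had means of 2410 in overexpression and 2468 in control cortex, and Jam2 had 1063 and 1032.

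The 20 pericyte genes had a median of 0.0063 and the 12 smooth muscle genes a median of -0.012. Cspg4, which encodes the proteoglycan NG2 of pericytes and oligodendrocyte precursors, stood at 706 in overexpression against 759 in control cortex. Rgs4, which cortical neurons also express strongly, had 10719 and 11987. Mylk, the myosin light chain kinase gene, had means of 516 in overexpression and 503 in control cortex. For 13 basement membrane genes the median was 0.0098, with 7 higher and 6 lower. Sparc, a matrix glycoprotein gene, had means of 7298 in overexpression and 7191 in control cortex, and Agrn, the agrin gene, had 6450 and 5951.

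Signals that act on the vessels were read from the same means, in a table where 0% of all tested genes were called. Of 23 genes of VEGF, angiopoietin and Notch signalling 14 had higher and 9 lower means, with a median log2 fold change of 0.029. Vegfa, the ligand of Kdr and Flt1, stood at 1470 in overexpression against 1358 in control cortex, with an authors' deposited p of 0.295. For 15 genes of platelet-derived growth factor B and TGF-β signalling the median was -0.077, with 6 higher and 9 lower. Itgb8, an integrin gene of the glia and neurons that release TGF-β to vessels, had means of 1302 in overexpression and 1458 in control cortex, and Ptk2 had 2788 and 2726.

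The 14 genes of Wnt and Norrin signalling to the barrier had a median of 0.040, with 9 higher and 5 lower. The authors' deposited table gave 0 of them an unadjusted p under 0.05, near the 0.534% of all tested genes. Apcdd1, a Wnt inhibitor that brain endothelium also makes, had means of 1525 in overexpression and 1396 in control cortex. Lrp6, a Wnt co-receptor gene, had 1128 and 1151. Wnt7b, a ligand for the barrier from neural cells, had means of 489 in overexpression and 430 in control cortex, a log2 fold change of 0.19 with an authors' deposited p of 0.214. Its control values were 450 in library A, 394 in B and 446 in C, and its overexpression libraries were not recovered. Wnt7a, the related ligand, had recovered values of 130, 157 and 198 in overexpression A, B and C, against 133, 164 and 181 in control libraries. Reck, which encodes a partner of Wnt7 on endothelium, had 304, 236 and 331 in overexpression and 250.5, 268 and 298 in control libraries. Wnt7a and Reck overlapped between the groups, and all 3 genes were named after their values were seen.

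**Figure D4:**
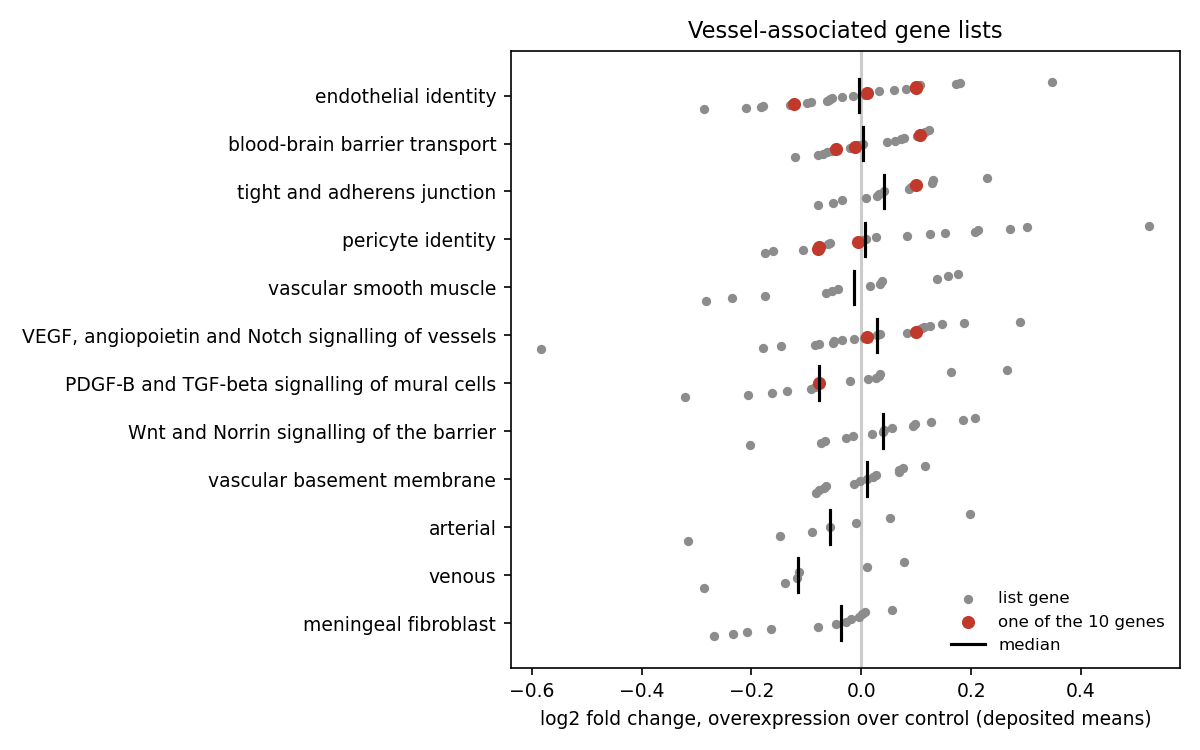
log2 fold change of the deposited means, overexpression over control, for genes of 12 lists around vessels. Grey points are list genes, red points the 10 genes described here and black bars list medians. The 10 genes lie between -0.12 and 0.11, and list medians between -0.12 and 0.04.

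Lists by vessel type and neighbouring cells were small. The 7 arterial genes had a median of -0.056. Cxcl12, a chemokine gene, had means of 1506 in overexpression and 1515 in control cortex, and Efnb2, the ephrin-B2 gene, had 1137 and 1260. The 6 venous genes had a median of -0.12, with Ackr1 at 1276 and 1383 and Vwf at 557 and 679 in overexpression and control cortex. The means of Ackr1 were above those of the general endothelial genes Cldn5 and Pecam1. Which cells gave the reads of these arterial and venous genes was not tested. For 9 astrocyte endfoot genes the median was -0.0024, with Gja1 at 4248 and 4182 and Kcnj10 at 4081 and 4185 in overexpression and control cortex. Among markers of other cells, 5 oligodendrocyte genes had a median of 0.099, 5 interneuron genes -0.13, 5 excitatory neuron genes -0.082, 5 astrocyte genes -0.059 and 6 microglia genes 0.015. The median was -0.037 for 12 meningeal fibroblast genes, -0.048 for 6 perivascular macrophage genes, -0.14 for 8 choroid plexus genes and 0.21 for 5 red blood cell genes. Of all 221 list genes the authors' deposited table gave 1 an unadjusted p under 0.05, beside 0.534% of all tested genes. That gene was Neurod6, an excitatory neuron gene whose locus carries Nex-Cre. For Neurod6 the control mean was 1942 and the overexpression mean 1199. The authors' deposited p was 5.04e-05 before adjustment and 0.76 after it, so Neurod6 was not called.

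Among blood genes, named after their values were seen, Hba-a2, an α-globin gene, had recovered values of 441, 597 and 382 in overexpression A, B and C, against 240 and 255 in control A and B and 433 in control C. By limma its log2 fold change was 0.64 with an unadjusted p of 0.0122 and an adjusted p of 0.9995. Of 116 recovered list genes it was the 1 with a limma unadjusted p under 0.05, beside 2.04% of all 10207 genes. Its authors' deposited p was 0.061. The near-identical copy Hba-a1 had means of 678 in overexpression and 761 in control cortex, and since reads can be split between such copies both values are uncertain. Hbb-bs, a β-globin gene, had 1694 and 1639.

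Of 4646 recovered genes whose mean reached 100, those whose log2 values followed Pecam1 most closely over the 6 libraries were Zfp273 (Pearson r = 0.983), Ctsh (r = 0.980), Slc52a2 (r = 0.979), Ppp1r3d (r = 0.973) and Nfe2l2 (r = 0.970). These are descriptions over 6 libraries that share their scaling, from the closest of 4646 genes, and carry no test. Ctsh, a lysosomal protease gene, had 188, 243 and 246 in overexpression A, B and C, against 243, 257 and 219 in control libraries. Letters bound by TCF and LEF, the partners of nuclear β-catenin, were searched in RefSeq promoters of build GRCm38.p6, from 250 bases before to 50 bases after the start. On both strands, CTTTGAA was in 5.14% and CTTTGAT in 3.73% of 32851 promoters. Neither was in the 8 windows found for Cldn5, Slc2a1, Slc16a1, Mfsd2a, Kdr, Flt1, Rgs5 and Vtn, which says nothing of sites elsewhere.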

How the data were processed

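Per the labels' protocols, RNA was extracted with Trizol and made into libraries with the Illumina TruSeq RNA kit. The submitters' processing notes list Bowtie2 2.0.6 and TopHat2 2.0.9. Not given in the sources used here are the counter, strand setting, annotation, build and test. The authors deposited 1 signal value per gene and group, a mean scaled read count as read from the values, and per the file headers a p-value with its adjusted value. Library totals are not in the table, so depth is known only through the recovered scaling factors. Symbols were found for 46488 of 47794 rows.

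The log2 ratio of the overexpression to the control mean served as fold change, and genes were called at the authors' adjusted p under 0.05. Library reads were recovered with Python 3.11.15, numpy 2.4.6 and numba 0.67.0 for means up to 1000. Of means between 100 and 450 in overexpression cortex 97.3% were recovered, and 14.3% of those between 450 and 1000. On simulated means, 100% of recovered values were right in each group. The simulated spread between libraries was small beside the 2-fold limit, so that limit was not put to the test. Real values can lie outside it, as Col3a1 had 207 in overexpression A against a group mean of 450. Recovered values plus 1, as log2, were tested by limma 3.58.1 (R 4.3.3) with a trend in the prior variance and Benjamini-Hochberg adjustment. The test took genes whose mean reached 10, 10207 of 17095, and was tried on simulated data. Where a gene had several combinations, each was put through the same fitted model.

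The 10 genes and the 21 lists were chosen with earlier results of these data known. Named genes were the 10, the 2 highest other genes of the vessel lists, list genes with an authors' p under 0.05, and the 5 genes most like the recovered genes; others are said to be named after their values were seen. Alternatives were other pseudocounts, filters, scalings, adjustments and left-out libraries.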

Additional observations from a re-analysis of the deposited data

How the results depend on the processing

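No paired analysis was possible because the deposited columns hold group means and recovered libraries carry no replicate number. The count of 0 among the 10 genes was the same in each alternative run, by the authors' p adjusted over genes with a mean of at least 10 and by limma with pseudocounts of 0.5 and 10, no filter, a minimum mean of 100, no trend, median-ratio scaling, each library left out, and each combination of library values for 7 of the 10 genes. In every limma setting 0 of all tested genes were called, so the unchanged count of 0 is no result about the 10 genes. limma had values for Pecam1 alone among the 10 outside those combinations, so the count says little about the others. The log2 fold change of Pecam1 turned to 0.003054 without overexpression A and lay between -0.2286 and 0.003054 over left-out libraries. The recovered value of Pecam1 in overexpression A was below that of every other library, and it rests on the 2-fold limit. The median over the 10 genes lay between -0.0083 and 0.023 over its scalings, pseudocount and summary. The share of genes lowest in overexpression A, with alternatives chosen after seeing the data, lay between 62.1% and 81.8% for endothelial and 90% and 100% for mural lists. The median recovered log2 fold change lay between -0.04 and 0.14 for endothelial and -0.12 and 0.21 for mural lists over left-out libraries. Without a trend limma gave 337 genes an unadjusted p under 0.05, against 208 with one, and without a filter 731. Depth per library is known only as a relative factor, and the most abundant of the 10 genes have no library values.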
